A study of Homo sapiens with 6 samples.

Results

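The genes described here encode the mitotic kinases Aurora A, Aurora B and PLK1, the proteins that activate Aurora A, and the chromosomal passenger complex with its centromeric partner shugoshin. They were taken from the deposited table by symbol, and all 9 symbols (AURKA, TPX2, BORA, PLK1, AURKB, INCENP, BIRC5, CDCA8 and SGO1) were found among its 61552 genes. All 9 passed a filter on low counts that left 17363 genes. Their mRNA was measured by sequencing in cultures of SKOV3, an ovarian adenocarcinoma cell line. The treated group had received 1 µM fenbendazole, a veterinary anthelmintic that acts on microtubules, for 48 h, and the other the solvent DMSO for as long. Each group held 3 libraries, named here by the numbers in their titles: fenbendazole 7, 8 and 9, and DMSO 10, 11 and 12. Nothing in the labels says that a library is a culture of its own, so the spread behind each p-value is that between libraries and may be technical. All libraries came from 1 cell line, and 1 dose and 1 time were measured.

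Total counts ran from 14127578 to 17452459 with fenbendazole and from 13170775 to 22128930 in DMSO. Each of the 10 markers of ovarian and other epithelial cells had at least 10 counts in some library. Their summed level was 5281 to 5839 CPM (counts after scaling for library size) with fenbendazole and 8752 to 17442 CPM in DMSO, most of it from ERBB2 (log2 fold change -1.29, edgeR adjusted p = 0.0422). None of the other 9 passed the threshold. Log2 fold changes were positive for KRT7 (1.05) and WT1 (0.44). They were negative for KRT8 (-0.04), EPCAM (-0.11), KRT18 (-0.29), PAX8 (-0.39), MUC16 (-0.40), KRT19 (-0.54) and MSLN (-1.43). Of 12 markers of leukocytes, endothelium and fibroblasts, 5 reached 10 counts: COL1A1 (468 to 1832 counts per library), CD68 (154 to 409), COL1A2 (102 to 318), LUM (106 to 266) and PECAM1 (156 to 224). The others had at most 9 counts, and CD3E was at 0 in all libraries. The summed level of these 12 markers was 89.0 to 90.7 CPM with fenbendazole and 81.7 to 127 CPM in DMSO, and their part in the results was not tested. DMSO 11 stood apart from the other controls. Its root-mean-square log2 distance to its group averaged 0.865 over all tested genes, against 0.705 and 0.722 for DMSO 10 and 12 and 0.518 to 0.556 for the fenbendazole libraries. The values of DMSO 10 and 12 include their distance to DMSO 11. Between pairs of libraries, chi-square per degree of freedom was 9.37 for DMSO 10 with 12. It was 91.2 for DMSO 10 with 11 and 100.4 for DMSO 11 with 12. Results are therefore also given without DMSO 11.

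Aurora A acts at centrosomes and on spindle microtubules, where TPX2 binds and activates it. BORA, the partner of Aurora A in the cytoplasm, helps it to phosphorylate PLK1 before mitotic entry. PLK1 then acts in centrosome maturation, kinetochore attachment and cytokinesis. Aurora B works in the chromosomal passenger complex, in which INCENP is the scaffold that activates the kinase. BIRC5 (survivin) and CDCA8 (borealin) bind the end of INCENP away from the kinase and bring the complex to centromeres. Shugoshin, the product of SGO1, protects centromeric cohesion and helps to place the complex. Transcription of many such genes peaks in G2 and mitosis, and their promoters are known for a short element called CHR, often with CCAAT boxes upstream.

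Promoter sequence from RefSeq (GRCh38.p14) was used for 6 of the 9 genes, AURKB, BORA, PLK1, INCENP, CDCA8 and SGO1; AURKA, TPX2 and BIRC5 are named only. CHR letters (TTTGAA or TTCGAA, either strand) began within the 250 bases before the annotated start in 5 of these 6 genes, against 14.3% of 35116 promoters. CCAAT letters (either strand) were present in all 6, against 32% of promoters, and both motifs in 5, against 5.05%. The shares of all promoters were counted by a stricter rule, per promoter entry and with the whole match before the start. The CHR match of SGO1 runs past its start, so that rule would leave SGO1 out of both counts with CHR. The windows of 30 bases around each CHR match are printed 5′ to 3′ on the strand of the gene, with the CHR letters in capitals to show the letters that these promoters share.
PLK1 (chr16:23678848-23678877, plus strand): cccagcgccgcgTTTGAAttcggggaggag
INCENP (chr11:62123989-62124018, plus strand): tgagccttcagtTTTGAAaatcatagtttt
CDCA8 (chr1:37692481-37692510, plus strand): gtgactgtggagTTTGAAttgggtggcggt
SGO1 (chr3:20186192-20186221, minus strand): gaggcggaaaatTTCGAAtgtggcggcggt
BORA, first match (chr13:72727734-72727763, plus strand): aggctgcgttgaTTTGAAtttggagccacg
BORA, second match (chr13:72727787-72727816, plus strand): gaggagttgccaTTCGAAtttcctacgcgg
The match began 29 bases before the RefSeq start in PLK1, 23 in CDCA8, 10 in INCENP and 3 in SGO1. A CHR match beginning within 35 bases before the start, a window set after these positions were seen, was found in 1.95% of all promoters. The 2 matches of BORA lay further out, 177 and 124 bases before its start. In CDCA8 the CHR letters overlap a CCAAT match on the other strand, and TTCGAA reads the same on both strands. AURKB, listed with a pair of starts, had the same CCAAT site before both, 153 and 129 bases away, and no CHR letters in these windows. GENCODE v29 also lists transcripts of some of these genes that start further upstream. A match of letters is a description and shows no binding.

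With fenbendazole, 8 of the 9 genes rose and 0 fell, and INCENP did not pass the threshold. Over all 17363 tested genes, 4.03% passed, 3.11% higher and 0.921% lower, by the same rule, edgeR's quasi-likelihood test with a Benjamini-Hochberg adjusted p of 0.05. The median log2 fold change (fenbendazole over DMSO) of the 9 genes was 2.20, against -0.06 for all tested genes. In each of the 9 genes the lowest fenbendazole library lay above the highest DMSO library, which was so for 17.0% of tested genes. Without DMSO 11 all 9 genes rose, where 13.1% of 17689 genes were higher. All 9 also rose with DESeq2 and with offsets for GC content and length, where 6.66% and 12.9% of genes were higher. Without fenbendazole 7, 8 or 9 the count was 5 each time, namely AURKA, TPX2, PLK1, BIRC5 and CDCA8, where 0.763%, 0.787% and 0.793% of genes were higher. It was 8 without DMSO 10 and 7 without DMSO 12 (1.40% and 2.32% of genes), 7 in a test against a 1.5-fold change (1.15%), and 5 both at an adjusted p of 0.01 (1.11%) and on unfiltered FPKM (0.425%). In RNA of whole cultures, a larger share of cells in G2 and mitosis and more of these transcripts per cell cannot be told apart.

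**Figure D1:**
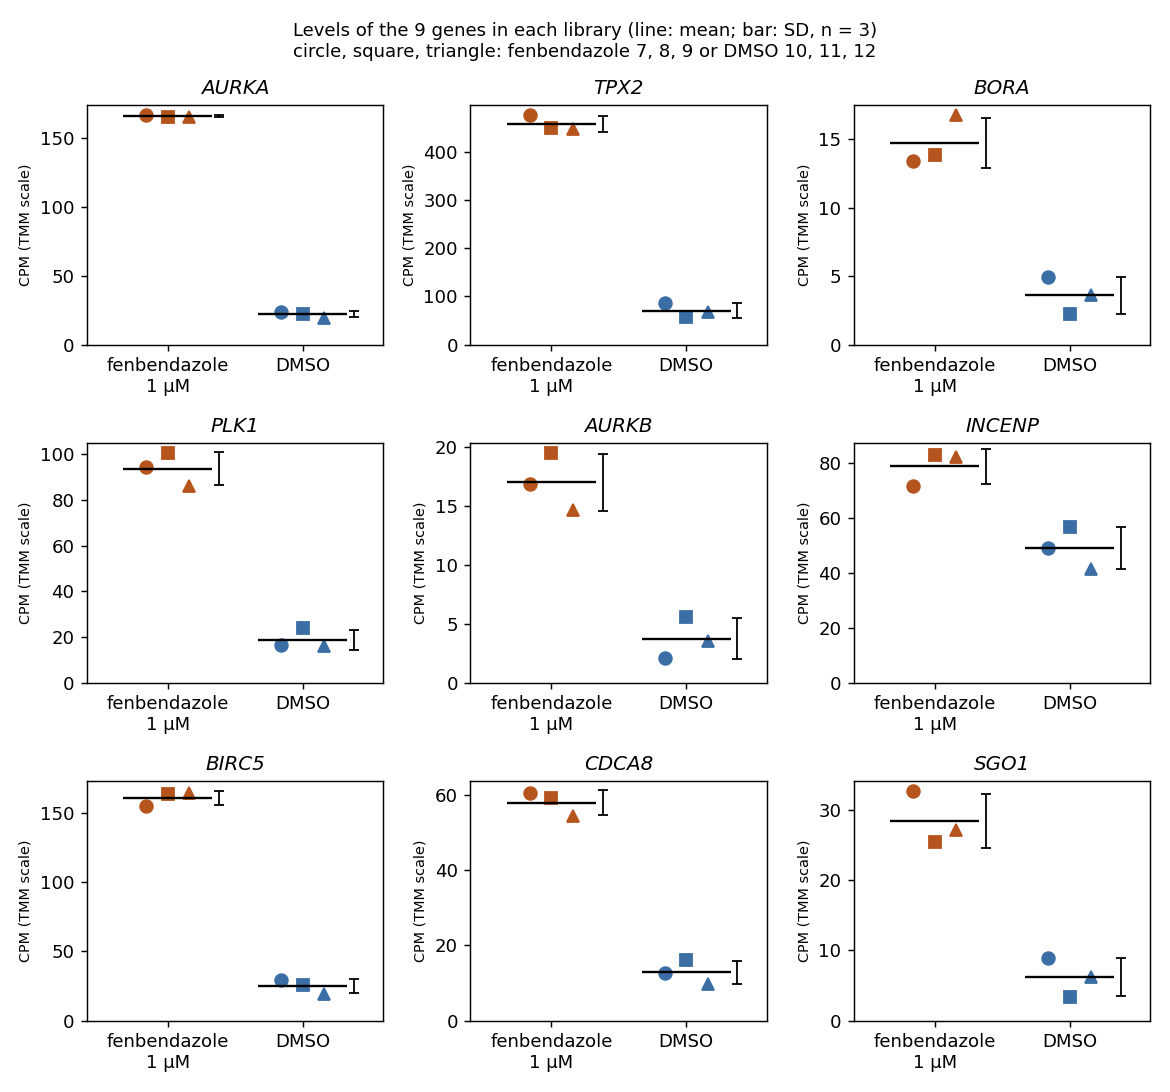
Level of each of the 9 genes in each library, in CPM on the TMM scale, with the mean (line) and SD (bar) of the 3 fenbendazole libraries at left and the 3 DMSO libraries at right. The groups are apart in every panel, by a wide margin for AURKA (165 to 167 CPM with fenbendazole, 19.6 to 23.9 CPM in DMSO) and a narrow one for INCENP (71.4 to 82.7 CPM and 41.4 to 56.7 CPM).

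AURKA, which encodes Aurora A (ENSG00000087586, chromosome 20, 56369389 to 56392337, GRCh38), was at 167, 165 and 165 CPM in fenbendazole 7, 8 and 9, against 23.9, 22.6 and 19.6 CPM in DMSO 10, 11 and 12. The libraries of each group lay close together and far from the other group. Its log2 fold change of 2.91 ± 0.135 (SE; edgeR adjusted p = 0.000484) was the largest of the 9 and ranked 30 among all tested genes. Of 3 AURKA pseudogenes in the table, AURKAP1 alone had counts, 1 to 14 per library. How reads that match both were assigned was not tested.

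TPX2, the spindle activator of Aurora A (ENSG00000088325, chromosome 20, 31739271 to 31801805), was at 476, 448 and 447 CPM with fenbendazole and 87.3, 56.7 and 68.5 CPM in DMSO. The groups lay far apart, and DMSO 11 held the lowest value. The log2 fold change was 2.69 ± 0.179 (SE; edgeR adjusted p = 0.000807), a 6.45-fold difference.

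BORA (ENSG00000136122, chromosome 13, 72727749 to 72756198) had few reads, 192 to 285 counts with fenbendazole and 49 to 89 in DMSO. In CPM these were 13.4, 13.9 and 16.8 with fenbendazole, against 4.96, 2.24 and 3.64 in DMSO, with DMSO 11 again the lowest. BORA rose by 2.03 ± 0.313 on the log2 scale (SE; edgeR adjusted p = 0.0146). The call was lost without fenbendazole 7, 8 or 9 (edgeR adjusted p = 0.0748, 0.0748 and 0.0941), and the adjusted p over 18 alternatives ran from 4.05e-08 to 0.0941. Its span overlaps that of DIS3, a gene of the RNA exosome on the opposite strand, by 4030 bases, and whether counting used strand is not given in the sources used here. DIS3 stood at 107, 108 and 108 CPM with fenbendazole and 75.3, 48.3 and 86.0 CPM in DMSO, and did not pass the threshold (log2 fold change 0.62 ± 0.210, edgeR adjusted p = 0.151). The share of BORA reads that may come from DIS3 was not tested.

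PLK1, the polo-like kinase (ENSG00000166851, chromosome 16, 23677656 to 23690367), has CHR letters before its RefSeq start of 23678889, as printed above, and thus inside this span. PLK1 was at 94.3, 100.5 and 86.2 CPM with fenbendazole. In DMSO it was at 16.4, 23.9 and 15.99 CPM, so that the groups lay far apart and DMSO 11 was the highest control. It rose by 2.31 ± 0.196 on the log2 scale (SE; edgeR adjusted p = 0.00139), a 4.97-fold difference. The genes that overlap its span, ERN2 and a long noncoding RNA without a symbol, had at most 8 counts in a library.

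Of the 4 genes of the passenger complex, 3 rose and INCENP did not pass. AURKB, which encodes its kinase Aurora B (ENSG00000178999, chromosome 17, 8204733 to 8210600), was at 16.8, 19.5 and 14.7 CPM with fenbendazole. It stood at 2.12, 5.57 and 3.50 CPM in DMSO, the widest relative spread between controls among the 4 genes of the complex, with DMSO 11 highest. AURKB rose by 2.18 ± 0.354 (SE, log2; edgeR adjusted p = 0.0174). That call was lost without fenbendazole 7, 8 or 9 (edgeR adjusted p = 0.0936, 0.0945 and 0.0832) and without DMSO 12 (0.055), and over the 18 alternatives the adjusted p ran from 1.72e-07 to 0.0945. Without DMSO 11 its log2 fold change was 2.62.

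INCENP, the scaffold (ENSG00000149503, chromosome 11, 62123998 to 62153169), was at 71.4, 82.7 and 82.2 CPM with fenbendazole and 48.9, 56.7 and 41.4 CPM in DMSO. The fenbendazole libraries lay above all controls by a small margin. Its log2 fold change was 0.68 ± 0.157 (SE), with a 95% interval of 0.32 to 1.05, and it missed the threshold (edgeR adjusted p = 0.0596). It passed with DESeq2 (adjusted p = 0.00365), without DMSO 11 (edgeR, 7.65e-05) and with offsets for GC content and length (edgeR, 0.00177), an alternative chosen after seeing the data. Over all 18 alternatives its adjusted p ran from 7.65e-05 to 0.869, the highest from the test against a 1.5-fold change, and its log2 fold change from 0.58 to 0.97.

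BIRC5, survivin (ENSG00000089685, chromosome 17, 78214186 to 78225636), was at 155, 164 and 164 CPM with fenbendazole and 29.5, 26.1 and 19.4 CPM in DMSO. It rose 6.43-fold (log2 2.68 ± 0.179, SE; edgeR adjusted p = 0.000807), the most of the 4 genes of the complex. CDCA8, borealin (ENSG00000134690, chromosome 1, 37692481 to 37709719), was at 60.6, 59.1 and 54.3 CPM with fenbendazole and 12.5, 16.1 and 9.82 CPM in DMSO. It rose 4.51-fold (log2 2.17 ± 0.208, SE; edgeR adjusted p = 0.0023). Both genes were clear of their controls in every library. Both calls held without each library in turn, with edgeR adjusted p of at most 0.0132 for BIRC5 and 0.0261 for CDCA8.

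SGO1, shugoshin 1 (ENSG00000129810, chromosome 3, 20160593 to 20186206), was at 32.8, 25.4 and 27.2 CPM with fenbendazole and 8.97, 3.42 and 6.25 CPM in DMSO, with DMSO 11 lowest. It rose by 2.20 ± 0.344 (SE, log2; edgeR adjusted p = 0.0154), and by 1.90 without DMSO 11. The call was lost without fenbendazole 7, 8 or 9 (edgeR adjusted p = 0.0878, 0.0679 and 0.0862), and the adjusted p over 18 alternatives ran from 2.30e-08 to 0.103. The antisense gene SGO1-AS1, which overlaps 11963 bases of its span, had 2 to 7 counts. Over the 12 pseudogenes that the table lists for AURKA, AURKB, CDCA8, SGO1 and PLK1, 5 had any count and none had more than 14 in a library.

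**Figure D2:**
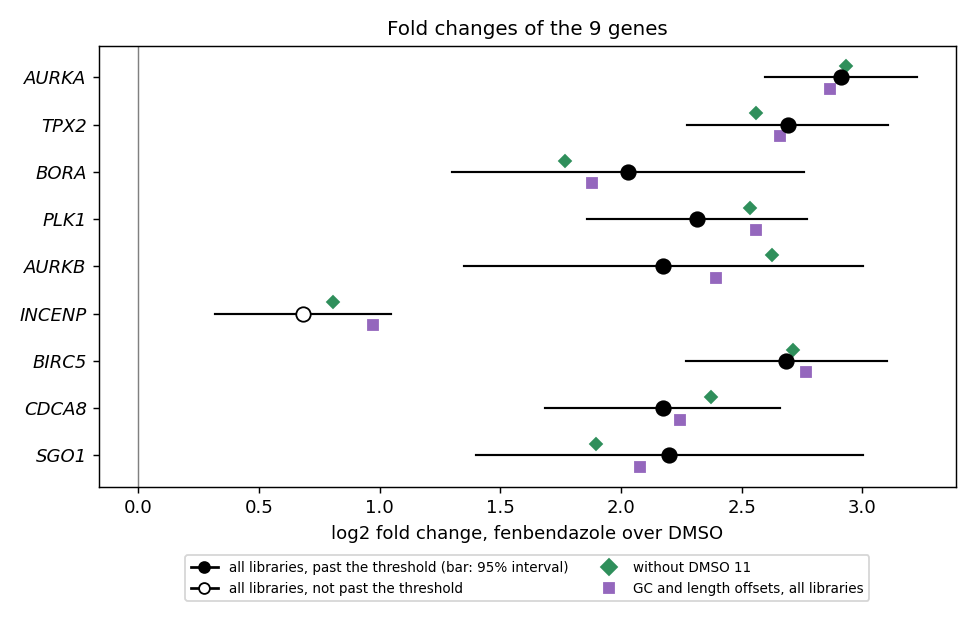
Log2 fold change (fenbendazole over DMSO) of each gene with its 95% interval from all 6 libraries, and the values without DMSO 11 and with GC and length offsets. INCENP, at 0.68, is the open circle that missed the threshold, and the other 8 lie between 2.03 and 2.91.

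DMSO 11 departed from the other controls in opposite directions in different genes, up in most of those rich in GC and down in most of those poor in it. In log2 CPM, DMSO 11 was above the mean of DMSO 10 and 12 by 1.00 in AURKB, 0.56 in PLK1, 0.53 in CDCA8 and 0.33 in INCENP, genes whose longest transcripts have 51.4% to 59.6% GC. The difference was -1.10 in SGO1 and -0.89 in BORA, with 41.7% and 41.1% GC. AURKA (46.6% GC) and BIRC5 (52.2%) differed by 0.06 and 0.12, and TPX2 (46.8%) by -0.45. Across these 9 genes, which share 1 library and are not independent replicates, Spearman's rho between GC content and this difference was 0.82 and Pearson's r 0.86, given as a description. Over all tested genes, rho was taken between GC content and a library's signed log2 difference from the mean of the other 2 of its group. It was 0.80 for DMSO 11, -0.58 and -0.68 for DMSO 10 and 12, and -0.26 to 0.29 for the fenbendazole libraries. The mean set against DMSO 10 or 12 includes DMSO 11, so their negative values partly mirror that library.

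The fold changes without DMSO 11 moved accordingly. They were higher without it for AURKB (2.62, against 2.18 with all libraries), PLK1 (2.54, against 2.31) and CDCA8 (2.37, against 2.17), and lower for SGO1 (1.90, against 2.20) and BORA (1.77, against 2.03). AURKA changed little, at 2.93 without DMSO 11 and 2.91 with it. With offsets for GC content and length and all libraries, the values were 2.39 for AURKB, 2.56 for PLK1, 2.08 for SGO1 and 1.88 for BORA. Each of the 9 genes kept a positive fold change under each of the 18 alternatives, though the threshold of 0.01 and the 1.5-fold test leave fold changes as they were. The part of GC content in the results was not otherwise tested.

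**Figure D3:**
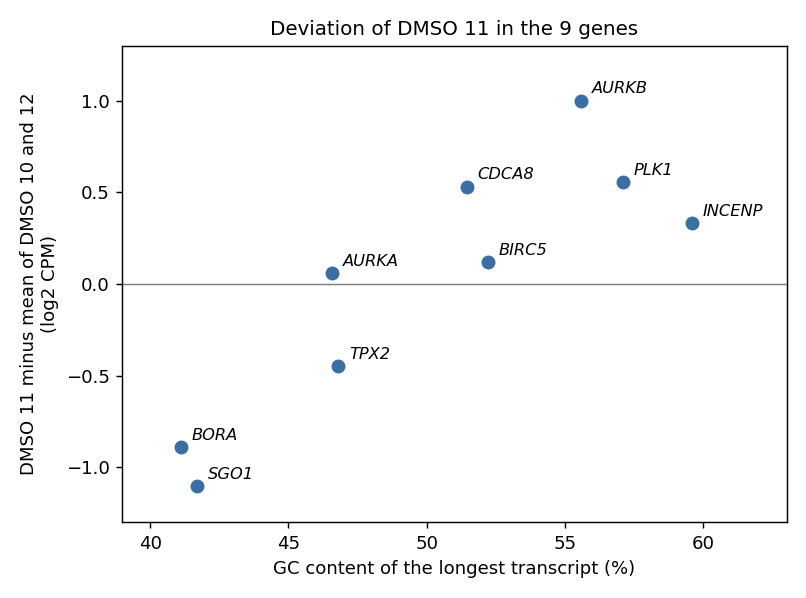
Difference between DMSO 11 and the mean of DMSO 10 and 12 (log2 CPM) against the GC content of the longest GENCODE v29 transcript, 1 point per gene. SGO1 and BORA lie lowest at both, and AURKB is 1.00 above 0.

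Levels between genes were compared on the deposited FPKM, a level scaled for transcript length and library size. With fenbendazole the order of mean FPKM was TPX2 (112), AURKA (72.1), BIRC5 (55.6), PLK1 (35.2), CDCA8 (21.0), INCENP (17.8), AURKB (13.4), SGO1 (9.70) and BORA (4.95). The ranges of neighbours overlapped only between CDCA8 and INCENP and between AURKB and SGO1. In DMSO the order was TPX2 (18.3), INCENP (11.3), AURKA (9.89), BIRC5 (8.96), PLK1 (6.93), CDCA8 (4.92), AURKB (2.86), SGO1 (2.31) and BORA (1.199). There TPX2 lay above all others, and every later pair of neighbours overlapped. INCENP thus stood sixth of 9 with fenbendazole and second in DMSO, while the other genes kept their order among themselves.

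Because the passenger complex is built from its subunits together, their levels were also set against INCENP within each library. The FPKM of BIRC5 was 3.31, 2.94 and 3.16 times that of INCENP in fenbendazole 7, 8 and 9, and 0.916, 0.726 and 0.742 times in DMSO 10, 11 and 12. CDCA8 was at 1.35, 1.10 and 1.11 times INCENP with fenbendazole and 0.420, 0.471 and 0.400 times in DMSO. Both ratios were apart between the groups and close among the libraries of a group.

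AURKB was at 0.897, 0.759 and 0.614 times INCENP with fenbendazole, and at 0.130, 0.308 and 0.321 times in DMSO. SGO1 was at 0.675, 0.484 and 0.492 times INCENP with fenbendazole and 0.310, 0.0816 and 0.258 times in DMSO. These 2 ratios were also apart, with a wider spread among controls. The ratio to INCENP differed by 3.96-fold for BIRC5, 3.19-fold for AURKB, 2.91-fold for SGO1 and 2.75-fold for CDCA8. Each of these 4 had an exact two-sided permutation p of 0.1, the smallest that 3 libraries against 3 allow, and 0.2 adjusted over 8 ratios, so the design cannot reach the threshold. Without DMSO 11 the log2 difference of the SGO1 ratio was 0.95, against 1.54 with all libraries.

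The other 4 ratios overlapped between the groups. AURKA was at 0.618, 0.658 and 0.660 times TPX2 with fenbendazole and 0.465, 0.725 and 0.478 times in DMSO (exact permutation p = 0.4, adjusted 0.457). AURKA was at 17.4, 15.6 and 11.9 times BORA with fenbendazole and at 6.05, 14.6 and 7.28 times in DMSO (exact permutation p = 0.2, adjusted 0.32). The ratio of AURKA to AURKB was 4.94, 4.91 and 6.64 with fenbendazole and 7.08, 2.65 and 2.84 in DMSO (exact permutation p = 0.4, adjusted 0.457). That of PLK1 to BORA was 8.72, 8.42 and 5.00 with fenbendazole and 3.62, 11.9 and 4.88 in DMSO (exact permutation p = 0.7, adjusted 0.7). These p-values do not show that the ratios were alike, since the control values spread widely.

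**Figure D4:**
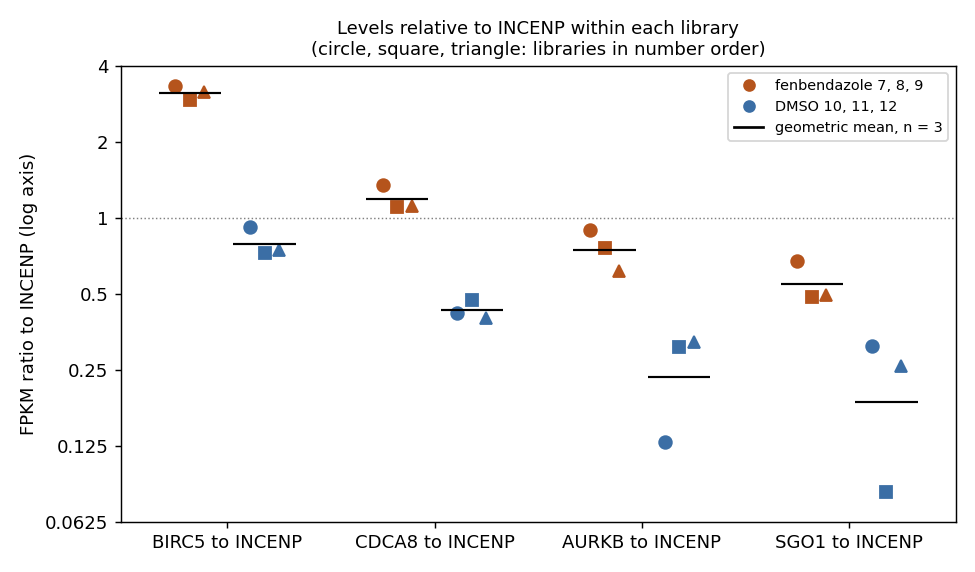
FPKM of 4 genes relative to INCENP within each library on a log axis, fenbendazole at left and DMSO at right of each pair, with geometric means as lines. BIRC5 lies at 2.94 to 3.31 with fenbendazole and 0.726 to 0.916 in DMSO, and in all 4 ratios the groups are apart.

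Other genes of the pathway were counted from 4 lists. The share to set beside each count with all libraries is that over all 17363 tested genes, 3.11% higher and 0.921% lower. Of 22 partners and substrates of the passenger complex and PLK1 at centromeres and the spindle midzone, 19 rose and 0 fell, and the median log2 fold change was 2.19, against 2.20 for the 9 genes. KIF20A, the kinesin that carries the complex to the midzone, was at 126 ± 5.36 CPM with fenbendazole and 16.9 ± 2.15 CPM in DMSO (SD, n = 3 each), a 7.49-fold rise. RACGAP1 and KIF23, the pair that forms centralspindlin, rose 4.28-fold and 5.42-fold. PRC1, which bundles midzone microtubules, rose 4.45-fold, and CDCA2, which targets a phosphatase to chromatin, 4.69-fold. The edgeR adjusted p of these 5 ran from 0.000484 to 0.00123. RCC2, a centromere protein, and PPP1CC, a phosphatase that opposes Aurora B, did not pass, with log2 fold changes of 0.12 and 0.49 (edgeR adjusted p = 0.636 and 0.0888), and both passed without DMSO 11 (0.0103 and 0.000495). NUDC, a substrate of PLK1 that was named after its value was seen, also did not pass, at 0.21 (0.413).

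Of 24 tested genes in a list of partners and regulators of Aurora A and PLK1, entry kinases and phosphatases of mitosis and the other polo-like kinases, 10 rose and 0 fell, with a median of 0.71. CCNB1 and CCNA2, the mitotic cyclins, rose 5.50-fold and 6.27-fold. TACC3, a spindle substrate of Aurora A, rose 3.24-fold, MASTL, a kinase that restrains PP2A, 3.31-fold, and HMMR, a spindle protein that binds TPX2, 11.1-fold (edgeR adjusted p of these 5 from 0.000521 to 0.00625). HMMR was at 123 ± 6.001 CPM with fenbendazole and 11.2 ± 5.79 CPM in DMSO (SD, n = 3 each). CDC25B, a phosphatase that activates CDK1, was at 336 ± 15.3 CPM with fenbendazole and 476 ± 130 CPM in DMSO, and did not pass (edgeR adjusted p = 0.195). Without DMSO 11 it fell by 0.25 on the log2 scale (0.0119). ARPP19, a target of MASTL, had a log2 fold change of 0.16 and was at -0.10 with GC and length offsets, passing in neither. The 10 include the paralogues PLK2 (log2 fold change 0.70, edgeR adjusted p = 0.0218) and PLK4, both named after their values were seen. PLK4, the polo-like kinase of centriole duplication, was at 58.2 CPM with fenbendazole and 11.1 CPM in DMSO (edgeR adjusted p = 0.0115). That call was lost without fenbendazole 7, 8 or 9 (0.0684, 0.0569 and 0.0735) and without DMSO 10 (0.0554).

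The third Aurora gene, AURKC, known mainly from germ cells, had too few counts to be tested. It had 14, 2 and 3 counts with fenbendazole and 18, 10 and 0 in DMSO, with overlapping groups. Of the 24 genes above, 17 passed without DMSO 11, 16 of them higher, where 13.1% of all genes were higher. The count was 5 without fenbendazole 7, 8 or 9, where 0.763% to 0.793% of all genes were higher, and 6 without DMSO 10 (1.40%).

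Of 15 genes of the transcription factors that act on G2 and mitotic promoters, 6 rose and 1 fell, with a median of 0.82. FOXM1, a forkhead factor of G2, was at 68.6 ± 2.69 CPM with fenbendazole and 16.5 ± 1.76 CPM in DMSO (SD, n = 3 each), and MYBL2, which joins the MuvB complex, at 117 ± 3.67 and 24.1 ± 8.64 CPM. E2F7 and E2F8, repressive E2F factors, rose 4.35-fold and 3.01-fold, and TFDP1, a partner of E2F proteins, 1.45-fold (edgeR adjusted p of these 5 from 0.000807 to 0.0388). The call of TFDP1 was lost without each library but DMSO 11 (edgeR adjusted p of up to 0.225) and that of E2F8 without fenbendazole 7, 8 or 9 (0.0765 to 0.105). The 1 that fell was TFDP2, another E2F partner, named after its value was seen, by 0.62 on the log2 scale (edgeR adjusted p = 0.0421), a call lost without each library but DMSO 11 (up to 0.242). RBBP4 and RBL2, subunits of the complex that holds these promoters silent in quiescence, were at 0.12 and 0.08 and did not pass. RBL2 was at -0.034 without DMSO 11. Of these 15 genes 12 passed without DMSO 11, 11 of them higher, where 13.1% of all genes were higher. The count was 3 without fenbendazole 7, 8 or 9 (0.763% to 0.793% of all genes higher) and 4 without DMSO 10 (1.40%).

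Of 14 genes in a list named degradation, 3 rose and 0 fell, with a median of 0.07. Their products take part in ubiquitinating the Aurora kinases, PLK1 or BORA, act on such ligases, or deubiquitinate survivin. CDC20, an activator of the anaphase-promoting complex, was at 175 ± 7.11 CPM with fenbendazole and 22.9 ± 5.51 CPM in DMSO (SD, n = 3 each), a 7.62-fold rise. FBXO5, an inhibitor of that complex, and UBE2C, its ubiquitin-conjugating enzyme, rose 2.37-fold and 2.45-fold. Both calls were lost without fenbendazole 7, 8 or 9 and without DMSO 10, and that of UBE2C without DMSO 12, with edgeR adjusted p of up to 0.13 for FBXO5 and 0.167 for UBE2C. CUL3 and KLHL22, subunits of ligases that act on Aurora B and PLK1, were at 0.40 and -0.64 and did not pass (edgeR adjusted p = 0.264 and 0.248). CUL3 passed without DMSO 11, at 0.23 (0.028). USP9X, a deubiquitinase of survivin, was at -0.0035, with either sign among the alternatives, and FBXW11, a subunit of a ligase of BORA, at -0.12, and neither passed. Without DMSO 11, 6 of the 14 passed, 5 of them higher, where 13.1% of all genes were higher. Without fenbendazole 7, 8 or 9 or DMSO 10 the count was 1, where 0.763% to 1.40% of all genes were higher.

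**Figure D5:**
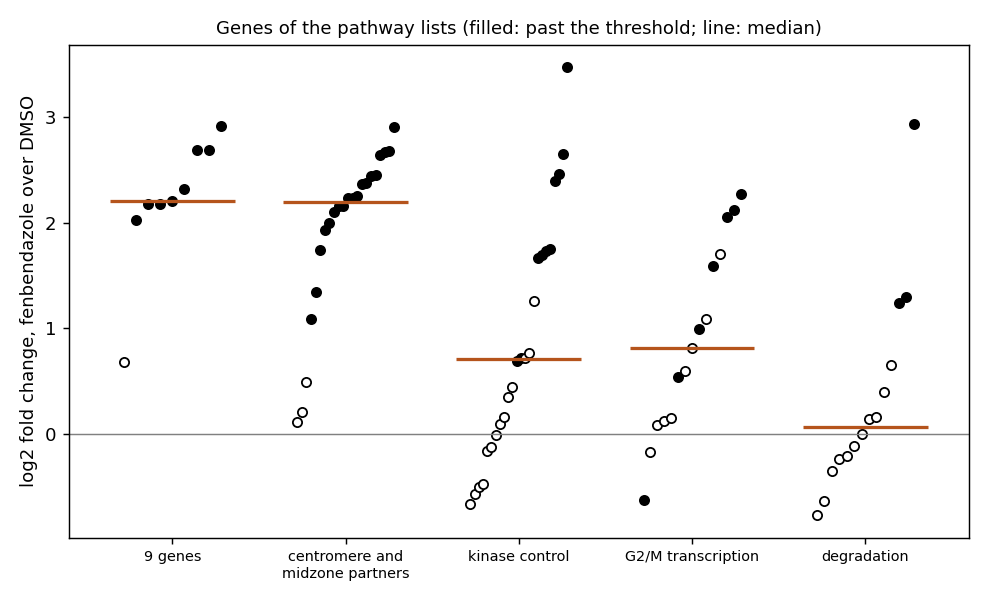
Log2 fold change (fenbendazole over DMSO) of the 9 genes and of each tested gene in 4 pathway lists, filled where past the threshold, with medians as lines. The 9 genes and the centromere and midzone partners have medians of 2.20 and 2.19, and the degradation list 0.07.

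The genes most like the 9 were sought over the 6 libraries among 11932 others with a mean of at least 5 CPM. The measure was the root-mean-square difference in log2 CPM, centred over libraries, from the mean profile of the 9 genes. It was smallest for IQGAP3 (0.0838), the spindle kinesin gene KIFC1 (0.0947), FOXM1 (0.110), AMTN (0.113) and PIMREG (0.115). Of the 9 genes themselves, CDCA8 (0.180) and PLK1 (0.201) lay nearest to their mean profile and INCENP (0.782) farthest. IQGAP3 was at 82.1, 80.7 and 84.8 CPM with fenbendazole and 19.7, 19.0 and 14.5 CPM in DMSO. AMTN, which encodes a secreted protein known from tooth enamel, was at 59.1, 60.0 and 65.8 CPM with fenbendazole and 15.5, 13.9 and 14.3 CPM in DMSO. In both genes the groups were apart and the libraries of a group close together, which follows from choosing them by this profile.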

How the data were processed

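The deposited table gives, for each gene, whole-number counts that the authors left unnormalised, and FPKM, named so per the file headers, for each of the 6 libraries. The tools in the submitters' processing notes are HISAT2 2.1.0, CASAVA 1.8, edgeR and StringTie 1.3.4b, and the build is GRCh38. Which program counted reads, on which annotation and with what strand setting is not given in the sources used here. The deposited FPKM were not a fixed multiple of a gene's count across libraries: the length they imply for AURKB ran from 1.12 to 1.48 kb.

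Counts of all genes were tested with edgeR 4.0.16 (R 4.3.3; quasi-likelihood F test, robust dispersions, TMM scaling, edgeR's filter on low counts), at a Benjamini-Hochberg adjusted p of 0.05. Of 17363 genes 540 were higher and 160 lower, against 455 and 231 with upper-quartile scaling. CPM are on the TMM scale, on which a library's 3 counts are worth 0.136 to 0.228. SEs come from the F statistic. Ratios of FPKM used an exact permutation test. No pair of libraries in a group was as alike as sampling noise allows, the lowest chi-square being 5.34 per degree of freedom.

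The genes and lists were chosen with earlier results of these data known. All 9 genes were named whatever their values. In each list up to 5 tested genes with the smallest p were named, and up to 2 others with the highest level that did not pass; genes outside this rule are marked as such. Alternatives were upper-quartile and median-of-ratios scaling, counts without a filter or with at least 1 CPM in all libraries of either group, DESeq2 1.42.0, limma-voom and limma (3.58.1) on log2 of FPKM plus 1 or 0.1 where 3 libraries reached an FPKM of 1, or with no filter. Others were a test against a 1.5-fold change, a threshold of 0.01, leaving out each library, and offsets for GC content and length of the longest GENCODE v29 transcript, which covered 97.8% of tested genes. Plots come from Python 3.11.15 and matplotlib 3.10.9.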

Additional observations from a re-analysis of the deposited data

How the results depend on the processing

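No paired analysis was possible because the labels tie no fenbendazole library to a DMSO library, by number, culture, day or batch. The GC and length offsets were added after the data had been seen. None of the 9 genes changed direction under the 18 alternatives, and AURKA, TPX2, PLK1, BIRC5 and CDCA8 passed under each. The threshold of 0.01 and the 1.5-fold test keep the main fold changes, so direction could not turn there. In all 9 genes the groups were apart, so leaving out a library could hardly turn it either. AURKB was lost under 7, and BORA and SGO1 under 5 each. The members past the threshold, 8 with all libraries, numbered 5 at an adjusted p of 0.01 and 5 with FPKM and no filter, and 5 (without fenbendazole 7, 8 or 9) to 9 (without DMSO 11) without 1 library. All genes past it, 700 with all libraries, numbered 1963 with DESeq2, 3684 with GC and length offsets, 188 with FPKM and no filter, 210 at an adjusted p of 0.01, 214 against a 1.5-fold change and 147 (without fenbendazole 7) to 3946 (without DMSO 11). Genes of kinase control, 10 at first, numbered 5 with FPKM and no filter, 5 at 0.01, 6 against a 1.5-fold change and 5 to 17 without 1 library. Genes of the degradation list, 3 at first, numbered 1 in each of these 3 settings and 1 to 6 without 1 library. Genes of transcription, 7 at first, numbered 4 with FPKM plus 0.1, 3 with FPKM and no filter, 3 at 0.01, 3 against a 1.5-fold change, 11 with DESeq2, 12 with the offsets and 3 to 12 without 1 library. Centromere and midzone genes ran from 13 to 22 without 1 library. Fewer libraries, fewer reads or a stricter threshold reduce power by construction, and otherwise the cause was not tested. Signs turned only in genes that did not pass and in 1 ratio. USP9X was at 0.00098 with median-of-ratios scaling, 0.0062 with the 1 CPM filter, 0.0011 with DESeq2, 0.0072 with voom and -0.092 to 0.052 without 1 library. RBL2 was at -0.027 with FPKM plus 1, filtered or not, -0.028 with FPKM plus 0.1, -0.0011 with the offsets and -0.034 to 0.16 without 1 library, ARPP19 at -0.10 with the offsets, and the log2 difference of the PLK1 to BORA ratio from -0.092 (without DMSO 10) to 0.77 without 1 library. BORA and AURKB had the fewest reads of the 9, 38 to 285 counts per library, and the part of depth in their lost calls was not tested.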

Other observations

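AUNIP, which encodes a protein that binds Aurora A at centrosomes and belonged to no list, was looked up after its values were seen. It was at 18.7, 19.0 and 14.6 CPM in fenbendazole 7, 8 and 9, against 8.36, 7.37 and 5.73 CPM in DMSO 10, 11 and 12. The groups did not overlap, and its log2 fold change was 1.28 ± 0.223 (SE; edgeR adjusted p = 0.0214), between those of INCENP and BORA.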
